A study of Mus musculus with 34 samples.

Results

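The response of mouse liver to tumour necrosis factor alpha (TNFa) was measured by RNA sequencing, 2 hours after the cytokine was injected into the peritoneal cavity of wild-type animals. The samples were 6 wild-type livers given TNFa and 5 wild-type livers given phosphate-buffered saline (PBS), which makes 11 of the 34 libraries of the series. They were chosen by label: all TNFa libraries and PBS libraries 1, 3, 4, 5 and 6. PBS library 2 was set aside because its composition differed, and TNFa library 4 is shown beside the other 5 throughout because its response was weaker. All animals were 3-month-old males on standard chow. The labels give no dose, strain or time of day, and give no time from the PBS injection to sampling. The other libraries of the same table come from 5 livers of PiZ mice, which carry the human Z variant of alpha-1 antitrypsin, given PBS, and 5 PiZ livers labelled as lacking p50. Wild-type mice given DMSO or tunicamycin make up a separate table that is not compared here. Of the 55487 genes in the table, 12090 were above 1 CPM (the usual unit of reads of a gene scaled to library size) in at least 5 of the 11 libraries and were tested. TNFa libraries alone can meet this limit. A gene under 1 CPM in every PBS library was thus tested only if it was above 1 CPM in at least 5 TNFa libraries. Counts of rises and median changes in the gene lists below depend in part on this limit.

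TNFa is a cytokine made mainly by macrophages. It binds TNF receptor 1, which assembles TRADD, TRAF2, the cIAP proteins and RIPK1 and so frees NF-kB, a dimer of Rel-family proteins, from its IkB inhibitors to enter the nucleus. NF-kB drives genes of chemokines, adhesion molecules and survival factors, and also genes of its own inhibitors, which end the response. In liver the hepatocytes, Kupffer cells (resident macrophages), endothelium and stellate cells all carry the receptor, and the hepatocytes answer with acute-phase proteins.

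The 11 libraries held 37346870 to 53981673 reads, with 97.3% to 97.7% on protein-coding genes and 7.75% to 20.33% on mitochondrial genes. PBS library 2 held 10213252, with 72.2% on protein-coding genes. Levels are given as log2 CPM, differences as log2 fold changes (TNFa minus PBS) ± their standard error, and p-values are from limma with Benjamini-Hochberg adjustment over the 12090 genes, called at 0.05. The labels do not state that each library is a separate animal, so the p-values measure only the spread between these libraries. Albumin (Alb) took 4.43% to 8.38% of reads, and the 15 hepatocyte markers together took 118000 to 149000 CPM after PBS, 112000 to 137000 in the other 5 TNFa libraries and 135000 in TNFa 4. None of these 15 markers passed the threshold, and 1 fell without TNFa 4. Pancreatic enzyme genes stood out in TNFa 5 and TNFa 6: Ctrb1, a pancreatic protease precursor, was at 9.81 and 5.70 there, at 2.14 in TNFa 4 and at -0.67 or lower in the other 8 libraries. Of the 12 pancreatic genes listed only Cela1 passed the filter (1.12 ± 0.74, adjusted p = 0.403), and the part of this RNA in other results was not tested.

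After TNFa, chemokine, adhesion and NF-kB genes were among those that rose, many of them from a few reads, while glucose, bile acid and endothelial regulators were among the genes that fell. Of the 12090 genes tested, 1032 rose (8.54%) and 396 fell (3.28%). These shares are the background for the list counts below. The median change over all genes was -0.01. Among the genes that rose, 217 changed by 2 or more on the log2 scale and 50 by 4 or more. Among those that fell the counts were 45 and 3. The groups did not overlap, all 6 TNFa libraries lying above or below all 5 PBS libraries, for 501 genes that were higher (4.14% of those tested) and 146 that were lower (1.21%). Without TNFa 4, 1307 genes rose (10.8%) and 877 fell (7.25%), together 2184 (18.1%), and 1418 of the 1428 genes called with all 6 were called again, each in the same direction. With PBS library 2 included, 135 rose and 33 fell. Of the 144 called genes that the naming rule covers, 58 kept their call with that library, and 126 kept it in each fit that left out 1 of the 11 libraries. With the libraries shifted to the same median, 947 rose and 681 fell, which lowers the share of rises among the calls from 72.3% to 58.2%.

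The 12 greatest rises without overlap were in Cxcl10, Nos2, Cxcl2, Olr1, Ccl2, Sele, Tlr2, Acod1, Ch25h, Elf3, Clec4e and Ripk2. Cxcl10, a chemokine that draws T cells, lies on chromosome 5 at 92346638 to 92348889 (GRCm38). It was at -1.24, -1.12, -1.02, -0.05 and 0.43 in the PBS libraries, at 9.25 to 9.60 in 5 TNFa libraries and at 5.84 in TNFa 4. Every TNFa library thus lay above every PBS library, with TNFa 4 between the groups, and the change was 9.44 ± 0.61 (adjusted p = 1.28e-05). Nos2, inducible nitric oxide synthase (chromosome 11, 78920787 to 78960254), had no read in 2 PBS libraries and was at -5.09, -4.32 and -2.30 in the other 3. After TNFa it was at 4.19 to 5.27, and at 1.50 in TNFa 4 (change 9.20 ± 0.81, adjusted p = 0.000129). Summed over libraries, Nos2 had 11 reads after PBS and 6361 after TNFa. Where PBS libraries hold no read, the size of a fold depends on the small prior count in the deposited values. That holds among these 12 for Nos2, Cxcl2, Olr1, Sele, Ch25h and Clec4e.

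Tlr2, the receptor for bacterial lipoproteins, was at 0.26 to 1.39 after PBS, 7.78 to 8.56 in 5 TNFa libraries and 4.77 in TNFa 4 (6.81 ± 0.57, adjusted p = 0.000129). Ripk2, the kinase that acts below the NOD receptors, was at 1.79 to 2.35 after PBS, 8.47 to 8.96 in 5 TNFa libraries and 5.27 in TNFa 4 (6.16 ± 0.55, adjusted p = 0.000129). Both were read in all libraries, so their folds do not rest on empty ones. Acod1 makes the antimicrobial metabolite itaconate, Ch25h makes 25-hydroxycholesterol, and Olr1 and Clec4e encode lectin-like receptors. Elf3 encodes an epithelial transcription factor. Their changes were 6.80, 6.67, 8.08, 6.24 and 6.26.

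The 12 greatest falls without overlap were smaller. Ppp1r3c, described with the glucose genes, led them at -2.83, followed by the matrix gene Ccn1 (-1.78). Tob1, which encodes an antiproliferative protein, was at 5.98 to 7.09 after PBS, 4.36 to 4.81 in 5 TNFa libraries and 5.93 in TNFa 4 (-1.67 ± 0.28, adjusted p = 0.00256). TNFa 4 thus lay just under the lowest PBS library. Tsc22d1 had the smallest error of these (-1.47 ± 0.18, adjusted p = 0.000426). Gucy1b1, a subunit of the nitric oxide receptor, changed by -1.55, the transcriptional co-regulator Cited2 by -1.27 and the phosphodiesterase gene Pde7b by -1.22. Sowahb (-1.58), Tlr5 (-1.32), Txnl4b (-1.25), Gdf2 (-1.25) and Shld2 (-1.24) complete the 12. Txnl4b lies next to Hp, which rose, and the annotated genes do not overlap.

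**Figure D1:**
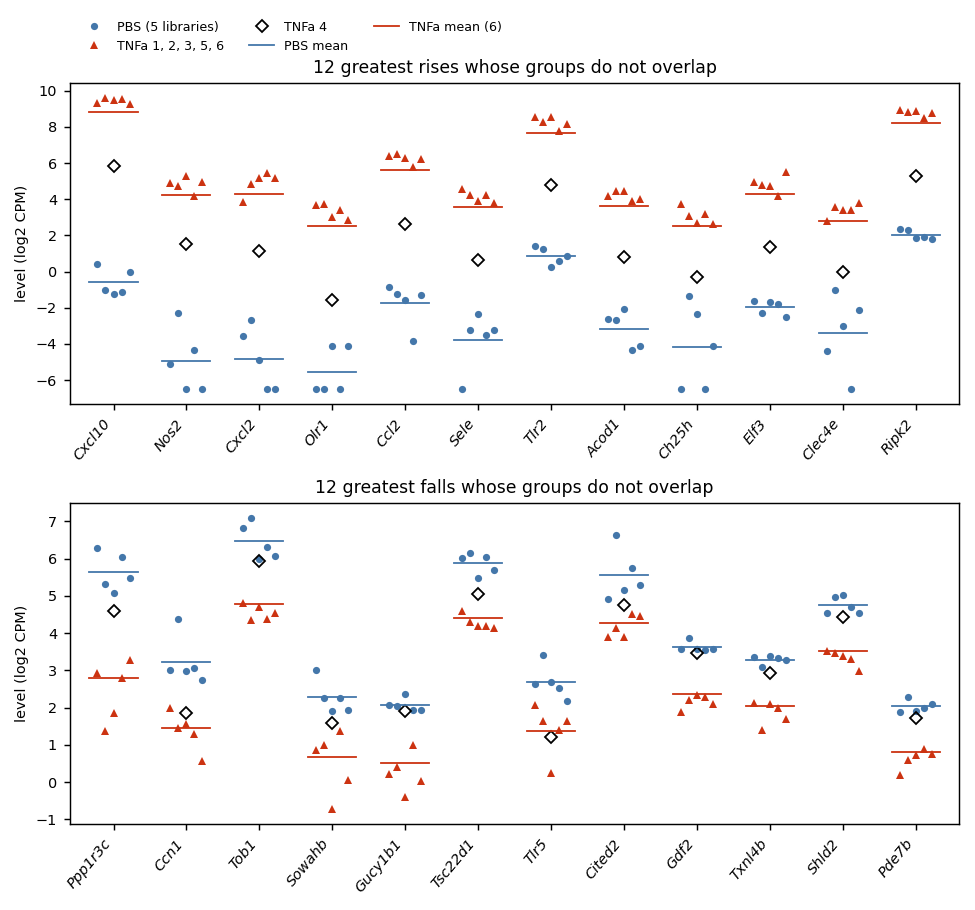
Level in log2 CPM of the 12 greatest rises (top) and the 12 greatest falls (bottom) among called genes whose groups do not overlap, with PBS libraries as circles, TNFa libraries 1, 2, 3, 5 and 6 as triangles, TNFa 4 as an open diamond and group means as lines. For every rise TNFa 4 lies between the 2 groups, as Cxcl10 at 5.84 shows, and circles at the bottom of the axis are libraries with no read.

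Within the TNF receptor pathway, several TRAF adaptors and both cIAP genes rose, while the receptor genes Tnfrsf1a and Tnfrsf1b and the IkB kinase genes Chuk, Ikbkb and Ikbkg did not pass the threshold. Of 25 members tested, 11 rose and 0 fell, with a median change of 0.38. Without TNFa 4, 14 rose and 1 fell. Tnfrsf1a, TNF receptor 1, was at 5.59 to 6.15 after PBS and 6.13 to 6.69 after TNFa, with overlap (0.38 ± 0.13, adjusted p = 0.0773), and Tnfrsf1b, TNF receptor 2, changed by 0.09 ± 0.34 (adjusted p = 0.911). Without TNFa 4 the change was 0.42 for Tnfrsf1a (adjusted p = 0.0399) and 0.38 for Ripk1 (adjusted p = 0.04). In that fit Tank also rose (0.51) and the adaptor gene Tradd fell (-0.48). With all 6 TNFa libraries Tank changed by 0.39 ± 0.16 and Tradd by -0.39 ± 0.16, and neither passed. Neither Ripk1 (0.29), Map3k7 (0.13), Chuk (0.02), Ikbkb (0.13) nor Ikbkg (0.18), the kinases and scaffold between the receptor and IkB, passed the threshold. Rbck1 (0.05), Sharpin (-0.04), Tab1 (-0.95), Tab2 (0.04) and Tab3 (0.16) did not pass either. Birc3, which encodes the ubiquitin ligase cIAP2, lies beside Birc2 on chromosome 9 (7848699 to 7873186). It was at 2.52, 2.68, 2.68, 2.76 and 2.76 after PBS, at 6.94 to 7.20 in 5 TNFa libraries and at 4.07 in TNFa 4 (3.85 ± 0.46, adjusted p = 0.000426). Birc2, which encodes cIAP1, rose by 3.17 ± 0.43 (adjusted p = 0.000804), and the groups were separate for both genes. Traf1, an adaptor with no ligase domain, rose by 3.56, Traf5 by 1.66, Traf3 by 1.02 and Traf2 by 0.99. Map3k14, the kinase NIK of the alternative NF-kB pathway, rose by 2.65, the kinase genes Ikbke by 1.91 and Tbk1 by 1.11, Map3k8 by 1.54 and Rnf31, the ligase of linear ubiquitin chains, by 1.26.

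All 5 NF-kB subunit genes rose, with a median change of 2.24. Relb, the partner of p52 in the alternative pathway, rose most: it was at 0.37 to 1.10 after PBS, 5.79 to 6.59 in 5 TNFa libraries and 3.24 in TNFa 4 (4.99 ± 0.49, adjusted p = 0.000129). Nfkb2, the gene of p100 and p52, rose by 3.57 ± 0.41 (adjusted p = 0.000313). Nfkb1, the gene of p105 and p50, was at 3.92 to 4.34 after PBS and at 4.77 in TNFa 4 (2.24 ± 0.32, adjusted p = 0.00105). Rel rose by 2.10, with TNFa 4 level to 2 decimals with the highest PBS library (2.70). Rela, the gene of p65, was at 5.52 to 5.95 after PBS, 7.95 to 8.19 in 5 TNFa libraries and 6.12 in TNFa 4 (2.02 ± 0.32, adjusted p = 0.00165). The order of the levels differed from that of the changes. Rela was highest after PBS (mean 5.74) and after TNFa (7.76), while Relb went from a mean of 0.72 to 5.71 and so passed Rel (2.16 to 4.26). These levels are in log2 CPM and not per transcript length.

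Most genes listed as NF-kB feedback inhibitors rose with the subunits: of 16 tested, 13 rose and 0 fell, with a median change of 1.35. Members such as Bcl3, Nfkbiz and Tnfaip8 are counted as listed, and whether each restrains NF-kB was not tested. Tnfaip3, the gene of the ubiquitin-editing enzyme A20, was at 0.77, 1.39, 1.40, 1.42 and 2.34 after PBS, at 7.68 to 8.19 in 5 TNFa libraries and at 4.37 in TNFa 4 (5.86 ± 0.59, adjusted p = 0.000129). Among the IkB genes, Nfkbie rose by 3.85 ± 0.48, Bcl3 by 3.53 ± 0.43, Nfkbia by 2.19 ± 0.29, Nfkbiz by 1.47 ± 0.26 and Nfkbib by 0.56 ± 0.13. Nfkbia, the IkB alpha gene on chromosome 12 (55489410 to 55492647), was already at 5.08 to 5.97 after PBS and reached 7.66 to 8.01, with 6.22 in TNFa 4. The A20-binding proteins Tnip1 and Tnip2 rose by 3.12 and 1.85. Zc3h12a and Zfp36, whose products destroy cytokine messenger RNAs, rose by 2.27 and 1.23, Tnfaip8 by 0.87, N4bp1 by 0.66 and Cyld, a deubiquitinase, by 0.49. The call of Cyld was lost without PBS 1, 4, 5 or 6 or TNFa 1, 2, 3 or 6 (adjusted p = 0.0515 to 0.0937), and that of Tnfaip8 without PBS 1 or 5 or TNFa 2 or 5 (adjusted p = 0.0525 to 0.0582). Otulin, Tax1bp1 and Itch did not pass (0.45, -0.06 and -0.14).

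**Figure D2:**
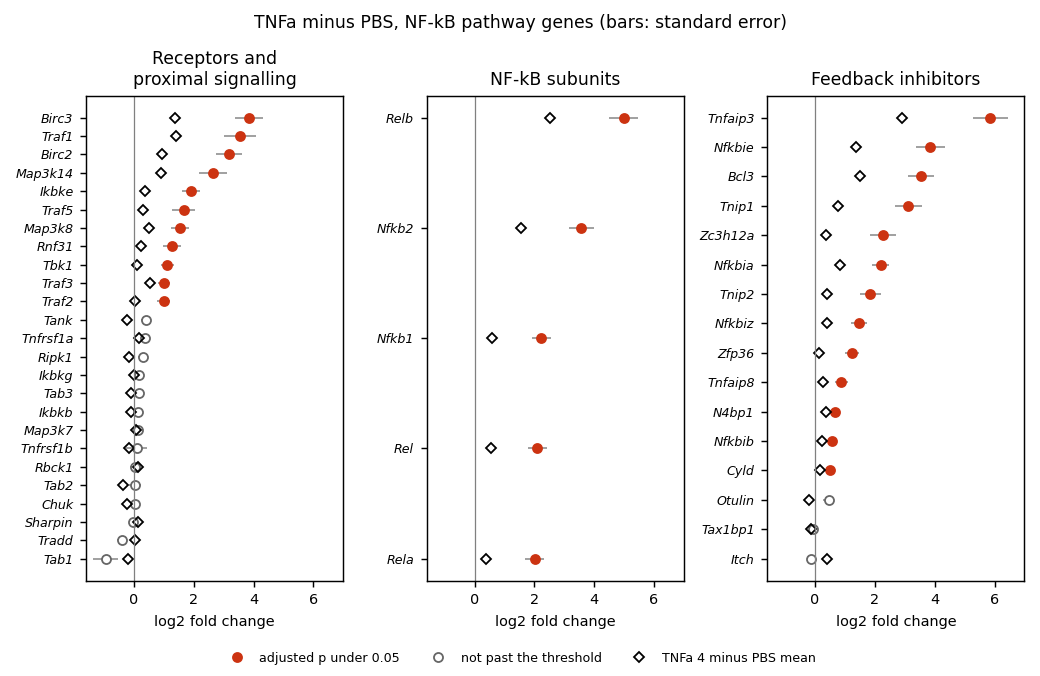
Log2 fold change of TNFa against PBS with its standard error for the tested genes of the TNF receptor pathway, the NF-kB subunits and the NF-kB feedback inhibitors, filled where the adjusted p is under 0.05, with TNFa 4 minus the PBS mean as diamonds. All 5 subunits and 13 of 16 listed inhibitors are filled, and the receptor genes Tnfrsf1a and Tnfrsf1b are open circles near 0.

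Promoter sequence of these genes was taken from RefSeq windows on GRCm38.p6, each of 250 bases before and 50 after a transcript start. The kB consensus, a motif of 10 bases that NF-kB dimers bind, was searched on both strands, with overlapping matches allowed. Windows existed for 8959 of the 12090 genes tested. A match lay in 5.3% of the windows of genes tested, 10.7% of those of genes that rose, 18.9% for rises of 2 or more and 22.2% (10 of 45 windows) for rises of 4 or more, against 5.0% for genes that fell and 4.8% for genes not called. Over all 32851 windows the share was 4.5%. The looser motif GGGNNNNNCC, which contains every kB match, showed no such order: 66.6% of windows of genes tested held it, 67.7% for rises, 62.3% for rises of 2 or more, 66.7% for rises of 4 or more and 67.1% for falls. Of the 33 genes among the 12 greatest rises, the subunits and the inhibitors, 25 had a window and 13 held the kB consensus. Shown here are 6 rising genes with a match close to the start, the match in capitals, and Sele, which rose by 7.31 and has no match in its window. Each is printed 5′ to 3′ on the gene's own strand and ends before the gene's start in GENCODE, so that no transcribed base is shown.
Cxcl10, chr5:92348890-92349089, minus strand: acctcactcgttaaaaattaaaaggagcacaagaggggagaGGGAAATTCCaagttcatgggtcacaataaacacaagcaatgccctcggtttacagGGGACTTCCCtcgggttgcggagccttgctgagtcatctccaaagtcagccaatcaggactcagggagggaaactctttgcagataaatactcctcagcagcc
Cxcl2, chr5:90903699-90903870, plus strand: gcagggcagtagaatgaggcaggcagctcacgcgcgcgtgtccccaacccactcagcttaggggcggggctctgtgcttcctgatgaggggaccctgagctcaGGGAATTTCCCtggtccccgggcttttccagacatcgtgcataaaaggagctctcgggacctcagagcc
Nfkbie, chr17:45555500-45555699, plus strand: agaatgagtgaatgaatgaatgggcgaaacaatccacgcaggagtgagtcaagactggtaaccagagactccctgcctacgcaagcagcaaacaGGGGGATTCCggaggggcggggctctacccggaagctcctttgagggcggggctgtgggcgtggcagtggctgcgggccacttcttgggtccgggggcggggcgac
Tnip1, chr11:54962941-54963140, minus strand: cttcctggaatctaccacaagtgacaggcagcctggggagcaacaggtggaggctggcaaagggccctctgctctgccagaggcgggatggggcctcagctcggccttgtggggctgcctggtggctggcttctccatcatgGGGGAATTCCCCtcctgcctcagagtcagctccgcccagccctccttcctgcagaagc
Nfkbia, chr12:55492648-55492847, minus strand: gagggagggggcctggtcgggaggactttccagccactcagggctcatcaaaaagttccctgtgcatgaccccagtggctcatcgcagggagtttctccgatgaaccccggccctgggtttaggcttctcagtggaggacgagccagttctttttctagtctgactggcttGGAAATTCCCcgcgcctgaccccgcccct
Rel, chr11:23770971-23771169, minus strand: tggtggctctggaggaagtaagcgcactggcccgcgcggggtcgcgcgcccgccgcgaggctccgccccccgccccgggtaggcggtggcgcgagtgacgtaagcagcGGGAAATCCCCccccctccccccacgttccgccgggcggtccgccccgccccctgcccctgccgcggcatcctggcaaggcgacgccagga
Sele, chr1:164048034-164048233, plus strand: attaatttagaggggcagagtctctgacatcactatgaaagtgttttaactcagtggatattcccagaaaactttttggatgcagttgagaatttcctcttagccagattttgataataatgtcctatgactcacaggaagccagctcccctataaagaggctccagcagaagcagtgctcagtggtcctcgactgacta
In Cxcl10 the 2 matches start 103 and 159 bases before the RefSeq start, and in Nfkbia the match starts 29 bases before it. The capitals in Cxcl2, Tnip1 and Rel cover overlapping matches at 1 place. A match is a description of the letters and no measure of binding.

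Many chemokine genes rose. Of 9 CXC and CX3C chemokines tested 8 rose and 0 fell (median change 2.94), and of 11 CC chemokines 6 rose and 0 fell (median 3.67). These counts and medians depend in part on the filter, which left 5 of 14 and 7 of 18 listed members untested. Cxcl2, Cxcl10, Cxcl11, Cxcl13, Cx3cl1 and all 6 CC genes that rose had PBS means under 1 CPM, so their high TNFa levels helped them pass it. The other CC genes, Ccl6, Ccl9, Ccl24, Ccl25 and Ccl27a, changed by -0.20 to 0.56 and did not pass. Cxcl2, a neutrophil attractant beside Cxcl1 on chromosome 5 (90903871 to 90905938), had 11 reads over all PBS libraries and 6967 over all TNFa libraries. Cxcl1 itself was at 2.47 to 5.46 after PBS, 7.09 to 7.94 in 5 TNFa libraries and 5.48 in TNFa 4 (3.07 ± 0.54, adjusted p = 0.0033). Its PBS spread was thus wide, and TNFa 4 lay only 0.02 above the highest PBS library. The interferon-type chemokines Cxcl9 and Cxcl11 rose by 3.54 and 2.94, and the membrane-bound Cx3cl1 and Cxcl16 by 2.53 and 1.46. Ccl2, which draws monocytes (chromosome 11, 82035571 to 82037453), was at -3.84 to -0.87 after PBS and 5.78 to 6.51 in 5 TNFa libraries, with 2.61 in TNFa 4 (7.39 ± 0.70, adjusted p = 0.000129). Ccl20 had 0 reads in the 5 PBS libraries and in TNFa 4, and 312 in the other TNFa libraries. Against a floor of 3 reads over the PBS group it was at least 95.4-fold higher. Cxcl12, a constitutive stromal chemokine, changed by -0.48 ± 0.18 (adjusted p = 0.11), or -0.59 without TNFa 4 (adjusted p = 0.0173).

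Among 12 cytokines and growth factors tested, of 28 listed, 7 rose and 1 fell. Tnf, Ltb, Il1b and Il15 had PBS means under 1 CPM, so their TNFa levels helped them pass the filter. Tnf itself was low: at most -1.99 after PBS, 1.61 to 2.45 in 5 TNFa libraries and -1.37 in TNFa 4 (5.29 ± 0.84, adjusted p = 0.0018). Il1b rose by 3.09 ± 0.52. Il1rn, the antagonist that blocks its receptor, rose from 0.67 ± 0.60 (SD, n = 5) to 6.18 ± 1.45 (SD, n = 6), a change of 5.51 ± 0.59. Csf1, the macrophage growth factor, rose by 3.34, Ltb by 3.11 and Il15 by 1.83. Hgf, the hepatocyte growth factor made by stellate and endothelial cells, fell by 1.14 on the log2 scale (± 0.27, adjusted p = 0.0149), from 2.75 to 3.31 after PBS to 1.34 to 1.79 in 5 TNFa libraries. TNFa 4, at 3.05, lay within the PBS range. Il6 stayed under the filter, with 5 reads over the PBS libraries and 80 over the TNFa libraries, and Ifnb1 had 0 reads in all 11.

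Many endothelial adhesion genes rose: of 15 genes tested 9 rose and 0 fell. The filter has a part in this count, since 2 of 17 listed genes were not tested. Some that rose, such as Sele and Selp, had PBS means under 1 CPM, so their TNFa levels helped them pass it. E-selectin (Sele), which is made by activated endothelium, was at -2.37 or lower after PBS, 3.78 to 4.54 in 5 TNFa libraries and 0.65 in TNFa 4 (7.31 ± 0.78). Icam1 was at 1.40 to 2.42 after PBS and 8.33 to 8.89, with 5.07 in TNFa 4 (6.16 ± 0.59). Vcam1 rose by 4.77 ± 0.56, P-selectin (Selp) by 3.85 ± 0.53 and the chemokine-binding receptor Ackr1 by 3.34 ± 0.45. Of 19 Toll-like receptors and adaptors 13 rose and 1 fell. Besides Tlr2 and Ripk2, Cd14, the co-receptor for lipopolysaccharide, rose by 3.52 ± 0.34, Irak3, an inhibitor of the pathway, by 3.38 ± 0.46 and Myd88 by 2.19 ± 0.31. Tlr4 itself changed by 0.20 ± 0.21 (adjusted p = 0.634). The flagellin receptor Tlr5 fell by 1.32 on the log2 scale (± 0.30, adjusted p = 0.0117), and TNFa 4, at 1.21, was among the low libraries.

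Of 23 genes of IL-1 and IL-6 receptor signalling, 13 rose and 0 fell. The SOCS family, which blocks JAK kinases, split: Socs1 rose by 5.44 ± 0.60, Cish by 4.14 ± 0.42, Socs3 by 2.67 ± 0.45 and Socs2 by 1.78 ± 0.30, while Socs4, Socs5, Socs6 and Socs7 changed by 0.12 to 0.29 and did not pass. Socs3 was at 2.79 to 5.06 after PBS and 6.66 to 7.54 in 5 TNFa libraries, and TNFa 4 at 4.93 fell inside the PBS range. The receptor genes Osmr and Il1r1 rose by 1.72 and 1.22. Il6ra and Lifr did not pass (-0.48 and -0.30).

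Acute-phase genes, which hepatocytes transcribe during inflammation, rose in part. Of 29 acute-phase genes tested, 13 rose and 0 fell, and the median change was 0.42. Lipocalin 2 (Lcn2), which binds bacterial iron carriers, rose by 5.09 ± 0.55 (adjusted p = 0.000233) from 1.26 to 2.77 after PBS to 6.93 to 8.01, with 4.21 in TNFa 4. The serum amyloid genes lie together on chromosome 7 (46711998 to 46754313): Saa3 rose by 4.18 ± 0.54, Saa2 by 3.94 ± 0.49, Saa1 by 2.34 ± 0.46 and Saa4 by 0.66 ± 0.15. Saa1 and Saa2 are near-identical copies between which the counting could split reads. Crp, C-reactive protein, was at 8.04 to 8.34 after PBS, 10.75 to 11.28 in 5 TNFa libraries and 8.98 in TNFa 4 (2.42 ± 0.32, adjusted p = 0.000641). The fibrinogen genes Fga, Fgb and Fgg (0.23, 0.13 and 0.14), C3 (0.21), Orm1 (-0.10) and Hamp, the iron hormone hepcidin (0.12), did not pass. Per length of exon, the greatest gain among called genes whose groups do not overlap was that of haptoglobin (Hp), from 1780 to 2630 RPKM (CPM divided by exon length in kilobases), though its log2 change was only 0.56 ± 0.14 (adjusted p = 0.018). Crp went from 84.5 to 501 on that scale, the metalloreductase Steap4 from 42.5 to 425 and Cxcl10 from 0.322 to 261. A further list of 23 genes joins negative acute-phase proteins, which fall in a full response, with other secreted hepatocyte proteins. None of the 23 was called, with Alb at -0.04 ± 0.16, Ttr at 0.02 ± 0.11 and Apoa1 at -0.23 ± 0.16. Without TNFa 4 the limma count for that list was also 0. Among all genes tested, 2947 of 12090 had an unadjusted p under 0.05.

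Metal-handling genes changed in both directions. The metallothioneins Mt2 and Mt1, small proteins that bind zinc, rose by 4.90 ± 0.92 and 3.40 ± 0.84. Mt1 overlapped, since 1 PBS library was at 8.39 against 8.93 to 9.27 in 5 TNFa libraries and 5.94 in TNFa 4, and its call was lost without PBS 1, 5 or 6 (adjusted p = 0.0514 to 0.0587). Heme oxygenase (Hmox1) rose by 3.51 ± 0.47 (adjusted p = 0.000793) with separate groups, and the metal importer Slc11a2 by 1.04 ± 0.16. The iron exporter ferroportin (Slc40a1) fell by 1.18 on the log2 scale (± 0.25, adjusted p = 0.00859), from 6.22 to 6.74 after PBS to 4.71 to 5.49, and TNFa 4 at 6.38 lay within PBS. Of 17 iron genes, 3 rose and 3 fell, against 8.54% and 3.28% over all genes.

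Interferon-type genes rose in part. Of 27 regulators and response genes 11 rose and 0 fell, led by the transcription factor Irf1 (3.65 ± 0.48), the ubiquitin ligase Trim21 (2.07 ± 0.37), Irf8 (1.93 ± 0.31) and Parp14 (1.74 ± 0.30). The classical type I response genes Ifit1, Ifit3, Isg15, Oasl2, Rsad2, Usp18, Irf7 and Mx2 had changes of -0.04 to 0.64 and did not pass. Oas1a (1.13 ± 0.39, adjusted p = 0.0796) and Oasl1 (-0.64 ± 0.25, adjusted p = 0.133) lay outside that range and did not pass either. Without TNFa 4, however, Isg15 rose by 0.80 (adjusted p = 0.0138) and Mx2 by 0.73 (adjusted p = 0.0241). Of the same list, Xaf1 and Isg20 rose by 1.20 ± 0.36 (adjusted p = 0.0463) and 0.83 ± 0.22 (adjusted p = 0.0267). The Xaf1 call held only without PBS 3 or TNFa 4 (adjusted p = 0.0747 to 0.106 without any other library), and that of Isg20 was lost without PBS 3, 4, 5 or 6 or TNFa 1, 3, 5 or 6 (adjusted p = 0.0503 to 0.0656). Of 17 GTPases of the GBP and IRG families, which attack vacuoles of intracellular microbes, 14 rose and 0 fell. Gbp5, Tgtp1 and Tgtp2 had PBS means under 1 CPM, so their TNFa levels helped them pass the filter. Tgtp1 rose by 5.23 ± 0.66, Gbp5 by 4.89 ± 0.49, Ifi47 by 4.44 ± 0.51 and Tgtp2 by 3.20 ± 0.52, where Tgtp1 and Tgtp2 are near-identical copies. Gbp5 was at -1.02 to -0.56 after PBS, 4.28 to 4.92 in 5 TNFa libraries and 1.51 in TNFa 4. Of 17 genes of MHC class I presentation 4 rose, against 8.54% of all genes. They were H2-Q6 (2.47), Tap1 (1.58), Nlrc5 (1.28) and H2-Q4 (0.68). H2-K1, H2-D1 and B2m changed by 0.20, 0.26 and -0.10 and did not pass. H2-Q4 lost its call without PBS 4 or 6 or TNFa 1, 2 or 3 (adjusted p = 0.0531 to 0.0649).

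Of 25 immediate early genes, which respond to many stimuli without new protein synthesis, 10 rose and 2 fell. Over all genes 8.54% rose and 3.28% fell. Gadd45b, a stress response gene, rose by 3.90 ± 0.73, Maff by 2.81 ± 0.58, Gadd45g by 2.68 ± 0.64, Myc by 2.58 ± 0.37 and Junb by 1.72 ± 0.33. Fos (-0.78), Egr1 (-0.61), Jun (0.53) and Ier2 (-0.37) did not pass. Ccn1, a matrix protein gene, fell by 1.78 on the log2 scale (± 0.31, adjusted p = 0.00275), and TNFa 4 at 1.86 lay with the other TNFa libraries (0.56 to 1.98) and under all PBS libraries (2.74 to 4.37). Dusp2 and Dusp8, phosphatases that switch off MAP kinases, rose by 5.96 ± 0.84 and 3.78 ± 0.75, and the Ras pathway inhibitors Spred2 and Spred1 by 1.43 and 1.27, whereas Dusp1 (-0.44) and Dusp6 (-0.45) did not pass.

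Of 23 genes of cell death and survival 8 rose and 0 fell, against 8.54% and 3.28% over all genes. The called genes include promoters and inhibitors of cell death. The anti-apoptotic Bcl2a1d and Bcl2a1a, near-identical copies, rose by 5.83 and 3.55 from a few reads. Mcl1 rose by 0.50 ± 0.08 (adjusted p = 0.0018) and Cflar, the gene of c-FLIP, by 0.52 ± 0.12 (adjusted p = 0.0118). On the other side, Casp4, an inflammatory caspase, rose by 3.35 ± 0.56, the death receptor Fas by 1.37 ± 0.24 and Bid by 1.09 ± 0.21. Bax, Bak1 and Casp8 changed by -0.07 to 0.08 and did not pass.

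Of the markers of blood and resident cells, most neutrophil and some Kupffer cell genes rose. In these whole-tissue libraries more or fewer cells of a type and more or less RNA per cell cannot be told apart. Of 12 neutrophil markers tested 9 rose and 0 fell (median change 3.06), and without TNFa 4 all 12 rose. Here too the filter has a part: 5 listed markers were not tested, and several that were, such as Ngp and Cd177, had PBS means under 1 CPM. S100a9 was at -0.73, -0.26, 1.18, 2.48 and 3.23 after PBS, at 4.77 to 5.85 in 5 TNFa libraries and at 1.85 in TNFa 4 (3.51 ± 0.79, adjusted p = 0.0121). Ngp rose by 5.99, Cd177 by 5.87 and Fpr2 by 3.82. Summed over the 17 markers, the level was 6.09 to 28.3 CPM after PBS, 85.6 to 162 in 5 TNFa libraries and 16.9 in TNFa 4. The defining granule genes Mpo and Camp had 0 reads over all PBS libraries, and Mpo had 17 over all 11. Camp went from a mean of -6.52 after PBS to -0.74 after TNFa and Ltf from -5.15 to 0.15. Elane stayed lower, at -4.94 and -3.52. All of these were under the filter. Of 17 Kupffer cell markers 6 rose and 0 fell, or 10 and 1 without TNFa 4. C1qa rose by 0.51 ± 0.09, and Clec4f, a lectin that defines Kupffer cells, by 0.39 ± 0.10. The Clec4f call was lost without PBS 5 or 6 or TNFa 1, 2, 3 or 6 (adjusted p = 0.0545 to 0.0741). Their summed level was 407 to 674 CPM after PBS, 527 to 636 in 5 TNFa libraries and 561 in TNFa 4. With the PiZ groups in the same fit 1 Kupffer marker rose and 1 fell. Of the 16 lymphocyte markers only Cd4 passed the filter (0.31, adjusted p = 0.536). Summed over the 16 markers, the level was 2.04 to 4.58 CPM after PBS, 3.9 to 5.99 in 5 TNFa libraries and 2.89 in TNFa 4. Of 3 monocyte markers tested Lyz2 rose, by 1.29 ± 0.19 (adjusted p = 0.00134), and 9 of the 12 listed were under the filter. Summed over the 12, Lyz2 included, the level was 31.5 to 43.7 CPM after PBS, 84.9 to 119 in 5 TNFa libraries and 44.9 in TNFa 4. Of 13 stellate cell and matrix markers 1 rose, Col4a1 (1.64 ± 0.36), and 1 fell, Lrat (-1.23 ± 0.34, adjusted p = 0.035), against 8.54% and 3.28% over all genes. Summed over all 16 listed, Col4a1 included, the level was 235 to 320 CPM after PBS, 346 to 432 in 5 TNFa libraries and 287 in TNFa 4. The Lrat call was lost without PBS 1, 4, 5 or 6 or TNFa 1, 2, 3 or 6 (adjusted p = 0.0593 to 0.0953). Of 5 cholangiocyte markers 1 rose and 1 fell, against the same 8.54% and 3.28%.

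Of 5 red blood cell genes the 4 haemoglobin genes rose, in TNFa 4 as in the other 5 libraries. With the PiZ groups in the same fit 1 of the 5 rose. Hba-a1 was at 7.54 to 8.20 after PBS, 8.45 to 8.88 in 5 TNFa libraries and 8.56 in TNFa 4 (0.71 ± 0.14, adjusted p = 0.00524). Hba-a2, Hbb-bs and Hbb-bt rose by 0.80, 0.64 and 0.60. Hba-a1 and Hba-a2 are near-identical copies, and Hbb-bt lost its call without PBS 3, 4 or 6 or TNFa 1, 2, 3 or 5 (adjusted p = 0.051 to 0.0837). The summed red cell level was 472 to 684 CPM after PBS, 734 to 1000 in 5 TNFa libraries and 846 in TNFa 4. The part of residual blood in the other results was not tested.

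Of 17 markers of sinusoidal endothelium, the lining of the liver's capillaries, 5 fell and 2 rose. Over all genes 3.28% fell and 8.54% rose. Gpr182 fell by 1.34 on the log2 scale (± 0.29, adjusted p = 0.0099), from 5.14, 5.31, 5.38, 5.43 and 5.48 after PBS to 3.45 to 4.01 in 5 TNFa libraries, while TNFa 4 stayed at 5.47. Kdr, the main receptor for vascular endothelial growth factor, fell by 1.08 on the log2 scale (± 0.26, adjusted p = 0.0177), with TNFa 4 again at the PBS level (5.56). Bmp2 fell by 1.07 on the log2 scale, and its call was lost without any 1 of the other 10 libraries (adjusted p = 0.0784 to 0.103) but held without TNFa 4. Lyve1 and Cdh5 rose by 1.34 and 0.51, and Stab1, Stab2, Pecam1 and Mrc1 changed by -0.04 to 0.11 and did not pass. The summed level was 564 to 711 CPM after PBS, 460 to 547 in 5 TNFa libraries and 721 in TNFa 4. Gdf2, the BMP9 gene of stellate cells, fell by 1.25 on the log2 scale (± 0.23, adjusted p = 0.00406). Its PBS values were 3.54 to 3.88, and TNFa 4 at 3.46 lay just under them. Id1, a target of BMP signals, fell by 2.13 on the log2 scale (± 0.60, adjusted p = 0.0368). The Id1 call was lost without PBS 1, 3, 5 or 6 or TNFa 1, 2, 3 or 5 (adjusted p = 0.0519 to 0.088).

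Among metabolic genes of the hepatocyte, single enzymes and regulators fell. Of 23 genes of gluconeogenesis, glycogen and insulin signalling 7 fell and 0 rose, and the median change was 0.00. G6pc, glucose-6-phosphatase (chromosome 11, 101367561 to 101377903), was at 7.54, 7.59, 7.77, 7.93 and 8.47 after PBS and at 3.73 to 4.80 in 5 TNFa libraries. TNFa 4 was at 7.63, inside the PBS range, and the change was -3.16 ± 0.58 (adjusted p = 0.00406), or -3.75 without TNFa 4. Ppp1r3c, a subunit that targets protein phosphatase 1 to glycogen, fell by 2.83 on the log2 scale (± 0.46, adjusted p = 0.00209) with separate groups, and here TNFa 4 was at 4.60, under the lowest PBS value of 5.09. Its relative Ppp1r3g spread from 0.04 to 7.22 after PBS. It fell by 4.28 on the log2 scale (± 1.15, adjusted p = 0.0284), and the call was lost without PBS 4 or TNFa 1, 2, 3 or 6 (adjusted p = 0.06 to 0.0696). Irs1, an adaptor of the insulin receptor, fell by 2.10 on the log2 scale (± 0.50, adjusted p = 0.0162), with TNFa 4 at 3.40 among the PBS values of 2.71 to 3.58. Pck1 changed by -0.54 ± 0.24 (adjusted p = 0.181), and Igfbp1, which had PBS values of 5.35 to 10.11, by 2.35 ± 0.81 (adjusted p = 0.0849). Without TNFa 4 these were -0.68 (adjusted p = 0.0419) and 2.82 (adjusted p = 0.0153).

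**Figure D3:**
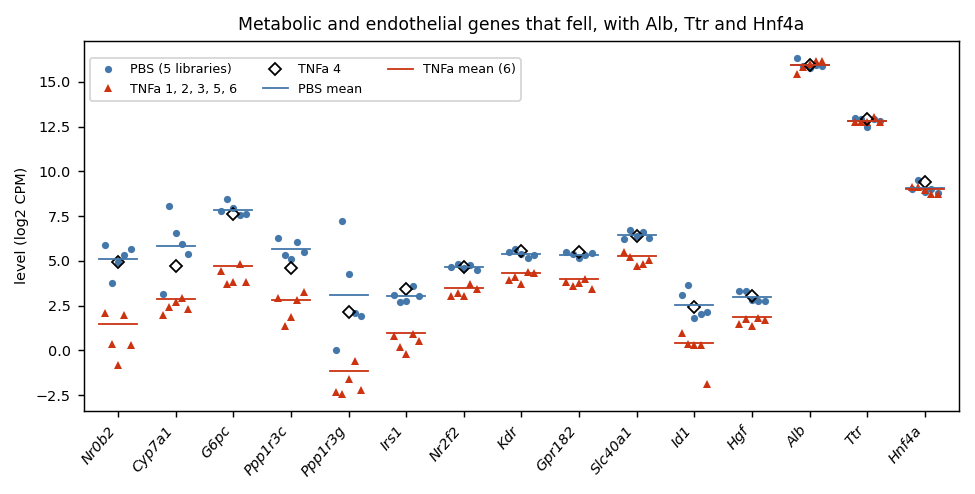
Level in log2 CPM of 12 metabolic, endothelial and other genes that fell, with Alb, Ttr and Hnf4a, which did not pass the threshold, in PBS libraries (circles), TNFa libraries 1, 2, 3, 5 and 6 (triangles) and TNFa 4 (open diamond), with group means as lines. TNFa 4 lies among the PBS circles for most of these genes, as for G6pc at 7.63, and Alb, Ttr and Hnf4a overlap between the groups.

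Of 20 hepatocyte transcription factors 2 rose and 3 fell, or 2 and 7 without TNFa 4. With the libraries shifted to the same median 5 fell. Nr0b2, the gene of SHP, a repressor of bile acid synthesis, was at 3.76 to 5.88 after PBS, -0.83 to 2.11 in 5 TNFa libraries and 4.91 in TNFa 4 (-3.65 ± 0.82, adjusted p = 0.0114). Cyp7a1, the rate-limiting enzyme of bile acid synthesis, fell too, by 2.97 on the log2 scale (± 0.72, adjusted p = 0.0169), from 3.12 to 8.08 after PBS to 1.95 to 2.94 in 5 TNFa libraries. It was the only 1 of 17 bile acid genes called, where 3.28% of all genes fell. Cyp8b1 changed by -0.28 and the exporter Abcb11 by 0.10. Nr5a2, the gene of LRH-1, rose by 1.43 ± 0.26 and Foxa3 by 1.17 ± 0.25, and Nr2f2 and Nr1i2 fell by 1.16 and 0.53, while Hnf4a (-0.03), Cebpa (-0.22) and Nr1h4, the gene of the bile acid receptor FXR (-0.13), did not pass. Ppara, the fatty acid receptor, was at 5.76 to 6.91 after PBS and 4.28 to 5.45 in 5 TNFa libraries with TNFa 4 at 6.57. Its change was -1.18 ± 0.37 (adjusted p = 0.0566), or -1.48 without TNFa 4 (adjusted p = 0.00103). None of 20 PPAR-alpha targets was called with all 6 libraries and 3 fell without TNFa 4. None of 26 cytochrome P450 genes was called with all 6, and 1 fell without TNFa 4.

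Clock genes varied within groups. Dbp, an output gene of the clock, ran from 1.44 to 6.47 after PBS and from -1.77 to 2.17 in 5 TNFa libraries, and it was at 5.69 in TNFa 4. Of 19 clock genes 1 fell (Rora, -0.62 ± 0.15, adjusted p = 0.0161), and without TNFa 4 1 rose and 4 fell. Over all genes 3.28% fell, and without TNFa 4 10.8% rose and 7.25% fell. Of 14 genes of the growth hormone axis 3 rose and 1 fell, against 8.54% and 3.28% over all genes. The rises were Stat5a (1.92 ± 0.37) and its targets Cish and Socs2. As the time of day is not in the labels, its part in these values was not tested.

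Few genes of the unfolded protein response, which the series also follows in PiZ livers, passed the threshold. Of 25 tested 3 rose and 0 fell, near the 8.54% of all genes that rose, with a median change of 0.24. Xbp1, whose product drives ER chaperones, was at 6.87 to 7.96 after PBS and 8.31 to 9.06 in all 6 TNFa libraries, TNFa 4 being the lowest (1.19 ± 0.20, adjusted p = 0.00209). The chaperone gene Hyou1 rose by 0.94 ± 0.27, a call lost without PBS 3, 4, 5 or 6 or TNFa 1, 2 or 3 (adjusted p = 0.0739 to 0.103). The third, the transcription factor Atf4, rose by 0.47 ± 0.14 (adjusted p = 0.0483), a call that held only without PBS 3 or TNFa 4 (adjusted p = 0.0689 to 0.111 without any other library). Hspa5, the gene of BiP, was at 0.49 ± 0.24 (adjusted p = 0.234) and Ddit3, the gene of CHOP, at -0.21 ± 0.24 (adjusted p = 0.684).

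**Figure D4:**
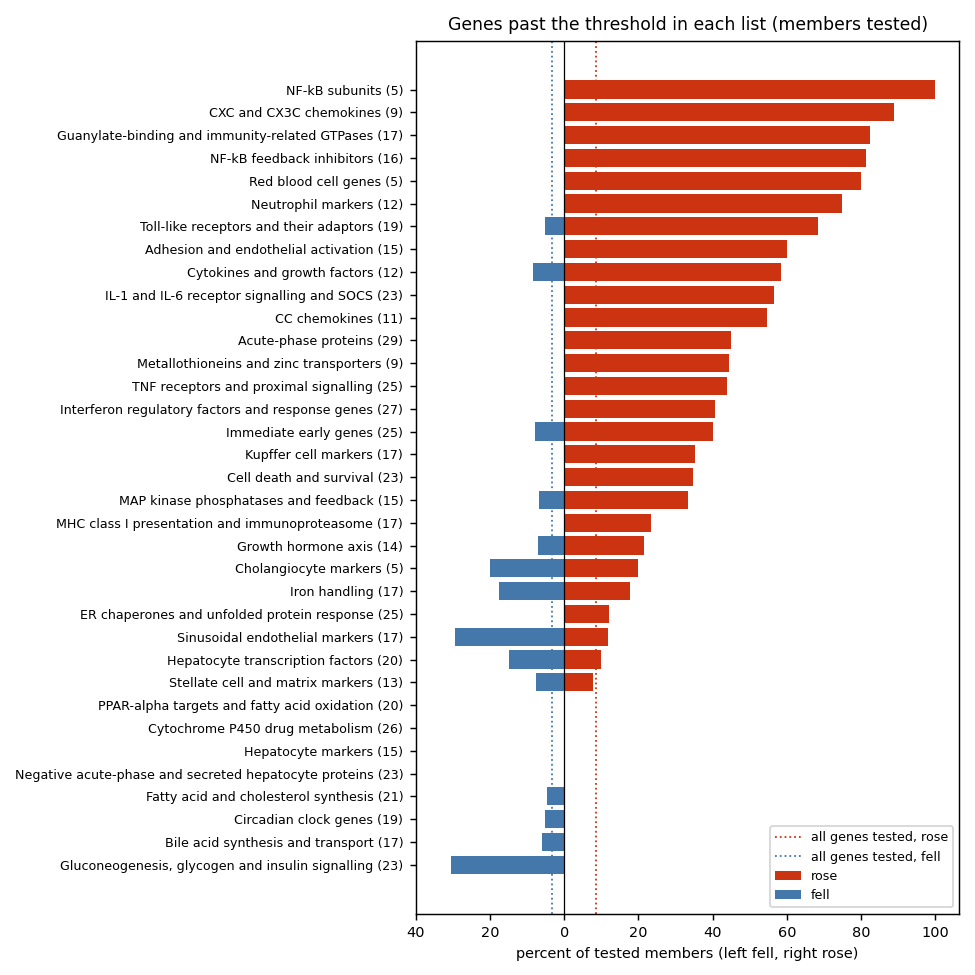
Share of the tested members of each gene list that rose (right) or fell (left) after TNFa, in percent, for the lists with at least 5 tested members, whose number stands in brackets. Dotted lines mark the shares over all genes tested, 8.54% for rises and 3.28% for falls. The lists of NF-kB subunits, CXC and CX3C chemokines, GTPases and NF-kB inhibitors lie farthest to the right, and the list of gluconeogenesis, glycogen and insulin signalling farthest to the left.

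TNFa library 4 showed the rises at reduced size and few of the falls. On the first principal component, which held 58.8% of the variance of the 11 libraries, PBS lay at -45.7 to -34.7, the other TNFa libraries at 40.3 to 48.9 and TNFa 4 at -21.1. Of the 1307 genes that rose without it, 1077 (82.4%) were also above the PBS mean in TNFa 4 and 546 were above every PBS library. Of the 877 that fell, 404 (46.1%) were below the PBS mean and 130 below every PBS library. On the linear CPM scale, looked at after the values were seen, TNFa 4 held a small part of the gain of most strongly rising genes. For the 76 genes that rose by 4 or more, the gain in TNFa 4 had a median of 7.71% of the mean gain in the other 5 (quartiles 4.18% and 9.25%), and for 52 of them it lay between 5% and 15%. Cxcl10 was at 0.726 CPM after PBS, 695 in the other 5 and 57.4 in TNFa 4, which is 8.16% of the gain. Icam1 reached 7.10%, Tnfaip3 7.39%, Tlr2 8.12%, Lcn2 8.71%, Gbp5 9.67% and Relb 10.5%. Neutrophil markers ranged widely, with S100a9 at -0.391%, Ngp at 1.60%, Fpr2 at 8.32% and Cd177 at 22.7%, and Cish was at 17.6%. The same measure in the other 5 libraries, each against the remaining 4, had medians of 93.1% to 106%. For rises of 2 to 4 the TNFa 4 median was 9.38% (214 genes), for rises of 1 to 2 it was 13.7% (410 genes), and for falls of 1 to 2 it was -4.75% (296 genes).

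On the log2 scale, shares were compared over the 254 genes that changed by 2 or more without TNFa 4 and met the level and name limits of the naming rule. The 5 greatest shares in TNFa 4 were those of Nos2 (66.1%), Cxcl10 (64.2%), Psd (63.9%), Cxcl2 (61.5%) and Cd14 (60.3%). Psd overlaps the end of Nfkb2 on chromosome 19, and without strand their reads cannot be told apart. The 5 smallest were negative: Cdkn1a (-78.8%), Nr4a3 (-65.6%), Usp2 (-54.9%), Aacs (-41.7%) and Nr1d1 (-40.4%). Cdkn1a, a cell cycle inhibitor, was at 2.32 to 3.50 after PBS, 4.16 to 5.78 in 5 TNFa libraries and 1.16 in TNFa 4. A set of 64 genes called as rising without TNFa 4 reached 80% or more of the CPM gain in TNFa 4 while lying above every PBS library. They were chosen after their values were seen and include Hba-a1 (90.0%), Hba-a2 (108%), Mcl1 (119%), Stip1 (109%), Serpinh1 (84.0%), Hyou1 (139%) and Hspa8 (215%). The Hspa8 call with all 6 was lost without PBS 5 or 6 or TNFa 2 or 3 (adjusted p = 0.0577 to 0.0736), and that of Hyou1 as given above. Read depth of TNFa 4 was the lowest of the 11, at 37346870 reads, and its share of protein-coding reads was within the range of the others. What made this library differ was not tested.

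**Figure D5:**
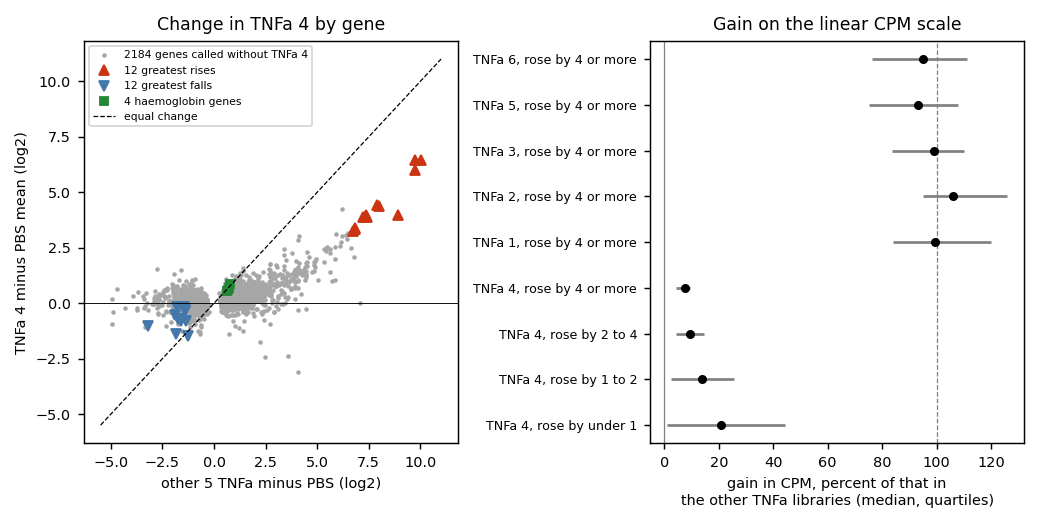
Left, change of TNFa 4 from the PBS mean against the change of the other 5 TNFa libraries (both log2) for the 2184 genes called without TNFa 4, with the 12 greatest rises, the 12 greatest falls and the 4 haemoglobin genes marked and a dashed line of equal change. Right, gain in CPM as a percent of that in the other TNFa libraries (median and quartiles): 7.71% in TNFa 4 for the 76 genes that rose by 4 or more, against 93.1% to 106% for the other 5 libraries.

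PiZ livers share the PBS libraries as their control, so TNFa and PiZ were compared directly. TNFa was higher than PiZ for 1061 genes (8.78%) and lower for 5445 (45%), with a median difference of -0.353 over all genes. All 6 TNFa libraries enter here, TNFa 4 among them, and without TNFa 4 the counts were 1116 and 5421. When every library was given an equal median the difference was 0.032 and the counts were 2655 and 2222, and both values are given for each gene. Cxcl10 was at 1.78 to 4.73 in the 5 PiZ livers, and TNFa exceeded PiZ by 5.60 (adjusted p = 3.61e-06, or 5.99 with equal medians). Ripk2 exceeded it by 4.66 (adjusted p = 3.65e-06, or 5.05), Crp by 2.46 (adjusted p = 2.44e-07, or 2.85) and Nfkb1 by 1.26 (adjusted p = 0.00303, or 1.64). Elf3 and Myc each differed by 0.05 (adjusted p = 0.96 and 0.918) and by 0.43 with equal medians, which did not pass. PiZ was higher for Lcn2, by 1.82 (TNFa minus PiZ -1.82, adjusted p = 0.0126, or -1.44 with equal medians), and for Lyz2 (-2.19, adjusted p = 1.8e-05, or -1.80). The weak TNFa 4 lowers these TNFa means. Without it the change from PBS was 6.83 and not 6.26 for Elf3, 2.87 and not 2.58 for Myc, and 5.62 and not 5.09 for Lcn2. Differences from PiZ without TNFa 4 are not given by gene. These 2 groups differ in genotype and in treatment at once, which cannot be told apart here.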

How the data were processed

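RNA sequencing libraries of mouse liver were processed by the submitters on GRCm38 with STAR, featureCounts of Subread, edgeR, DRAGEN and bcl2fastq, per the submitters' processing notes, which give no order or settings. The deposited values are log2 CPM, log counts scaled by library size, with a small prior count, and the lowest value of every library, -6.52, stands for no read. Whole reads could be recovered from these values (100% of low values within 0.1 read of a whole number, checked up to 1000 reads), which gave depths and read sums. Of 55774 rows, 287 repeat a gene ID. Coordinates are from GENCODE M21 (99.5% of IDs matched).

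Genes above 1 CPM in at least 5 of the 11 libraries were tested with limma 3.58.1 in R 4.3.3 (mean-variance trend) on the log2 values as deposited, with Benjamini-Hochberg adjustment and a threshold of 0.05. The fit was repeated without TNFa 4, and TNFa was set against PiZ in a fit of 21 libraries. The fit was tested on simulated data. Recovered reads were tested with voom as an alternative, and no count model was fitted.

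The gene lists, the samples and the limits were chosen with earlier results of these data known. The naming rule covers the 12 greatest rises and falls without overlap at a mean of 2 log2 CPM or more. It also covers up to 4 called members of each list and the 5 greatest and 5 smallest shares in TNFa 4. All tested members of the TNF receptor and NF-kB lists complete it. Not every gene that the rule covers is described here. Other genes named were picked after their values were seen. Of 176 called genes named here, 161 kept their call in each fit without 1 library. The labels do not state that libraries of 1 number are paired, so the numbers were not used as pairs. Such libraries did not deviate together, a check that cannot exclude pairing.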

Additional observations from a re-analysis of the deposited data

Results flagged for a closer look

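A library counts as far from the others where its gap to the nearest library of its group is large against the group's whole range (Dixon's ratio at the 95% level). Chance marks about 1 in 20 groups. Among 250 of the genes named here there were 131 such libraries, and 110 of them were TNFa 4.

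The log2 CPM level of TNFa 4 was low for Ackr1 2.94, Acod1 0.81, Bcl2a1a -2.15, Bcl2a1d -1.59, Bcl3 5.99, Birc2 4.07, Birc3 4.07, Casp4 -0.20, Ccl2 2.61, Ccl20 -6.52 and Cd177 -0.74. Below the other 5 libraries it was also for Cd40 -0.50, Cdkn1a 1.16, Ch25h -0.30, Cish 2.78, Clec4e -0.04, Crp 8.98, Csf1 3.16, Cxcl1 5.48, Cxcl10 5.84, Cxcl16 3.40 and Cxcl2 1.16. Low levels (log2 CPM) were those of Cxcl9 3.21, Dusp2 -2.15, Dusp8 1.85, Elf3 1.38, Fas 3.96, Fpr2 -0.50, Gadd45b 0.59, Gadd45g 1.46, Gbp5 1.51, H2-Q6 3.22 and Hamp 8.23. Further genes with TNFa 4 lowest were Hcar2 0.15, Hmox1 5.38, Icam1 5.07, Ifi47 4.78, Igfbp1 6.89, Ikbke 3.99, Il15 -0.56, Il1b 0.65, Il1rn 3.23, Irak3 0.18 and Irf1 4.64. The log2 CPM level of TNFa 4 was low for Irf8 2.90, Jun 3.78, Junb 6.76, Lcn2 4.21, Lyve1 1.29, Lyz2 5.22, Maff 4.19, Map3k14 0.18, Mt1 5.94, Mt2 0.91 and Myd88 3.82. Below the other 5 libraries it was also for Nfkb1 4.77, Nfkb2 4.00, Nfkbia 6.22, Nfkbie 2.36, Ngp -2.15, Nlrp3 0.52, Nos2 1.50, Nr4a3 -3.96, Nr5a2 5.86, Olr1 -1.59 and Osmr 2.49. Low levels (log2 CPM) were those of Parp14 3.52, Pfkfb3 4.94, Rel 2.70, Rela 6.12, Relb 3.24, Ripk2 5.27, Rnd1 6.12, S100a9 1.85, Saa3 2.75, Sele 0.65 and Selp 1.12. Further genes with TNFa 4 lowest were Slc7a11 -0.74, Socs3 4.93, Steap4 8.42, Tbk1 4.27, Tgtp1 0.18, Tgtp2 -0.25, Tifa 4.93, Tlr2 4.77, Tnf -1.37 and Tnfaip3 4.37. The log2 CPM level of TNFa 4 was low for Tnip1 3.49, Traf1 -1.28, Traf2 2.40, Trim21 2.21, Vcam1 3.95, Xaf1 -0.39 and Zfp36 6.50.

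TNFa 4 lay above the other 5 TNFa libraries, in log2 CPM, for Bmp10 1.74, Bmp2 4.77, Clec14a 4.31, Cyp7a1 4.72, G6pc 7.63, Gdf2 3.46, Gpr182 5.47, Hand2 1.80, Hgf 3.05, Irs1 3.40 and Itch 6.14. High levels of TNFa 4 were also seen for Kdr 5.56, Lhx2 0.89, Rnf43 3.69, Shld2 4.43 and Tob1 5.93.

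PBS 1 stood apart from its group, in log2 CPM, for Hspa5 10.08, Isg20 1.43, Pecam1 4.27 and Sele -6.52. PBS 3 stood apart from its group, in log2 CPM, for Ccn1 4.37, Dusp1 6.24, Dusp6 6.29, Gdf2 3.88, Irf7 3.93, Nr1h4 6.77, Nr1i2 5.83 and Tnfrsf1b 6.62. PBS 4 stood apart from its group, in log2 CPM, for Hp 11.05 and Traf2 1.98. PBS 5 stood apart from its group, in log2 CPM, for Casp4 -3.49, Ccl2 -3.84, Egr1 4.09 and Rora 5.97. TNFa 1 stood apart from its group, in log2 CPM, for Casp8 4.34 and Hbb-bt 5.95. TNFa 5 stood apart from its group, in log2 CPM, for Cela1 9.14, a pancreatic enzyme gene.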

How the results depend on the processing

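With PBS library 2 included, 168 genes passed the threshold, 135 higher and 33 lower, against 1428, and without TNFa 4 there were 427, 262 higher and 165 lower. With no filter on low values 379 of 55487 genes passed, 337 higher and 42 lower, and at 4 CPM 256 were lower. Library weights gave 2648, 1582 higher and 1066 lower. Shifting libraries to the same median gave 681 lower (58.2% of calls higher, against 72.3%), and quantile normalization 608 (61.4%). Without TNFa 4 the same shift left 48.2% higher. Leaving out 1 library gave 962 to 2184 genes, 772 to 1307 higher and 190 to 877 lower, the upper ends being the fit without TNFa 4 and the lower ends the fit without TNFa 2. Without TNFa 4 the ranges were 1831 to 2359, 1125 to 1506 and 687 to 910. TNFa against PiZ gave 2655 higher and 2222 lower with equal medians. No call of the 144 genes that the naming rule covers reversed in the alternatives to the comparison of 6 with 5 libraries. Depth limits genes with few PBS reads, whose folds depend on the prior count. The edgeR and DESeq2 alternatives were not run, and in their place voom on recovered reads, chosen after seeing the data, gave 1502 genes, 1038 higher and 464 lower.

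As a replicate block, the sample number gave 781 genes, 679 higher and 102 lower, and without TNFa 4 1762 genes. The correlations of same-numbered deviations were 0.056, 0.011, -0.178, -0.242 and 0.013, and no library correlated best with its own number. So few values, with TNFa 4 shifting the TNFa mean, cannot exclude pairing. The labels do not state any, and no pairing was used.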

Other observations

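Genes outside the lists, picked after their values were seen, add to the account of the liver 2 hours after TNFa. Among rises, Rnd1, a small GTPase, was at 2.08 to 3.79 after PBS, 9.61 to 9.93 in 5 TNFa libraries and 6.12 in TNFa 4 (6.14 ± 0.60, limma adjusted p = 0.000129). Tifa, an adaptor of TRAF6, rose by 4.85 ± 0.47, the co-stimulatory receptor Cd40 by 5.05 ± 0.65, the inflammasome sensor Nlrp3 by 4.31 ± 0.53 and the cystine transporter Slc7a11 by 4.03 ± 0.61, each with separate groups. Hcar2, a receptor for ketone bodies and niacin, rose by 5.95 ± 0.92, and Pfkfb3, a regulator of glycolysis, by 4.01 ± 0.63, with overlap through TNFa 4.

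Other genes fell, some of them with TNFa 4 inside the PBS range. G0s2, an inhibitor of fat breakdown, was at 5.40 to 7.84 after PBS, 0.51 to 2.95 in 5 TNFa libraries and 5.90 in TNFa 4 (-4.17 ± 0.86, limma adjusted p = 0.00745). Clec14a, an endothelial surface protein, was at 4.00 to 4.40, 1.20 to 2.07 and 4.31 (-2.22 ± 0.46, adjusted p = 0.00785). Rnf43 (-2.31) and Sp5 (-2.04), targets of Wnt signals, Tbx3 (-1.73) and Hes1 (-2.25), a target of Notch signals, fell as well. Bmp10 (-2.73), Hand2 (-2.70) and Lhx2 (-2.49), which are genes of stellate cells in liver, also fell, with TNFa 4 at 1.74, 1.80 and 0.89 inside the PBS range of each. They were picked for their fall, and of the 13 stellate and matrix markers listed 1 fell and 1 rose, with a median change of 0.18. Gucy1a1, the partner of Gucy1b1, fell by 2.34 on the log2 scale (± 0.46, adjusted p = 0.00587).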
